A study of Drosophila melanogaster with 9 samples.

Results

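The genes described here are 38 maternal patterning and oocyte mRNA localization genes of Drosophila melanogaster, out of 17559 genes counted in ovary RNA. They were taken from a list of known axis-forming genes in 8 systems, and all 38 were matched to identifiers present in all 9 count files, 37 by current symbol and nos (nanos) by synonym. RNA came from ovaries of DPLG1 mutant flies, DPLG4 mutant flies and w1118 control flies, a laboratory strain marked by a white mutation, with 3 libraries in each group. DPLG1 and DPLG4 are domesticated PIF transposase genes, that is, genes derived from the coding sequence of a DNA transposon. The genotype labels call the flies mutant for the gene and the sample titles carry KO, the usual short form of knockout. The sources used here name neither the allele nor the age of the flies. The design compares each mutant with control, and the design text calls the 3 samples of a group biological replicates.

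The body axes of the fly are laid down in the mother, by mRNAs that nurse cells make and transport into the oocyte and by cues that follicle cells leave in the eggshell. bcd and osk mRNAs are localized to opposite poles, Gurken signals from the oocyte to the follicle cells, and the terminal and Toll receptors read extracellular ligands that are activated after the egg is laid. Egg activation then lifts the translational repression of stored mRNAs and starts their clearance. The readout here is the amount of each mRNA in whole ovaries, which carries no information on where in the oocyte an mRNA lies. In such bulk RNA, fewer cells of a type and less RNA per cell cannot be told apart.

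Libraries held 18078883 to 95751320 gene counts, and the floor of 3 counts corresponded to 0.0311 to 0.172 CPM (counts per 1000000 counts of the TMM-scaled library). CG12253, the gene of DPLG1, was read 0, 0 and 1 times in its own mutant, and CG7492, the gene of DPLG4, 102, 147 and 77 times in its own, against at least 943 and 2692 times in every control. The ovary label was checked with markers: 10 germline genes summed to 1680 to 1840 CPM in all 9 libraries, and 7 of 9 testis genes were at 0 everywhere. The even germline sum hides members that moved in opposite directions. In DPLG1 mutants bam (58.2 to 65.3 against 34.7 to 37.4 CPM) and zpg (411 to 490 against 317 to 365 CPM) lay above all controls. Below all controls lay ovo (157 to 205 against 225 to 314 CPM) and otu (392 to 472 against 502 to 586 CPM). A list of 15 gut genes was not even. It summed to 49.5 CPM in DPLG1 replicate 7, 33.4 CPM in DPLG4 replicate 3 and 9.85 CPM in DPLG4 replicate 15. The other libraries, with all controls among them, held 0.172 to 0.862 CPM. The part of this gut signal in the results below was not tested. The 38 patterning genes together took 0.953% to 1.22% of gene counts. In control replicate 1, 72% of the total lay in the summary lines, mostly as reads that did not align uniquely (70.7%), against 11.5% to 13.8% in the other libraries. Values below are given for replicates 22, 5 and 7 of the DPLG1 mutant, 15, 3 and 7 of the DPLG4 mutant and 1, 2 and 3 of the control, in that order.

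Maternal patterning mRNAs were among the more abundant transcripts of the control ovary. Per kilobase of annotated exon, 27 of the 38 lay above the median of tested genes, which was 22.3 CPM per kb, and 12 lay in the highest 10%. By this measure the most abundant was gnu, which encodes an activating subunit of the PNG kinase, at 577 ± 99.1 CPM per kb (SD, n = 3). Next came osk, the organizer of the germ plasm, at 564 ± 35.2 CPM per kb, and these neighbours did not differ beyond their spread. pgc, which encodes a repressor of transcription in pole cells, stood at 479 ± 14 CPM per kb. Per kilobase of the 53.1% of its exons that overlap no other gene, the same pgc counts amount to 903 CPM, above gnu, and which of the 2 lengths applies depends on how overlaps were counted, which the sources used here do not state. smg, which encodes a protein that binds and destabilizes maternal mRNAs, stood at 351 ± 48.2 CPM per kb. These 4 genes also had the highest group means in DPLG1 and in DPLG4 mutants. In DPLG1 mutants smg, at 203 ± 39.2 CPM per kb, did not differ from the next gene, swa, at 202 ± 25 CPM per kb, beyond their spread.

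A middle tier in controls ran from swa at 204 ± 50.1 CPM per kb through cact at 161 ± 10.4, gcl at 137 ± 9.51 and plu at 135 ± 19.1 to nos at 113 ± 16.1 CPM per kb. Below it came cad at 83.7 ± 9.64, Tl at 68.9 ± 1.12, tor at 58.7 ± 5.07 and bcd at 53.3 ± 5.96 CPM per kb. The genes of secreted cues that the germline makes were spread widely: spz stood at 83.4 ± 1.71 and ea at 35.7 ± 5.43, while trk stood at 11.9 ± 1.03, grk at 11 ± 0.506, snk at 10.2 ± 1.81 and gd at 7.53 ± 0.136 CPM per kb. The order within each tier is loose, because many neighbours lie within each other's SD. The remaining tested genes, from sqd at 129 ± 6.04 to pum at 18.8 ± 5.21 CPM per kb, fell between these values.

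**Figure D1:**
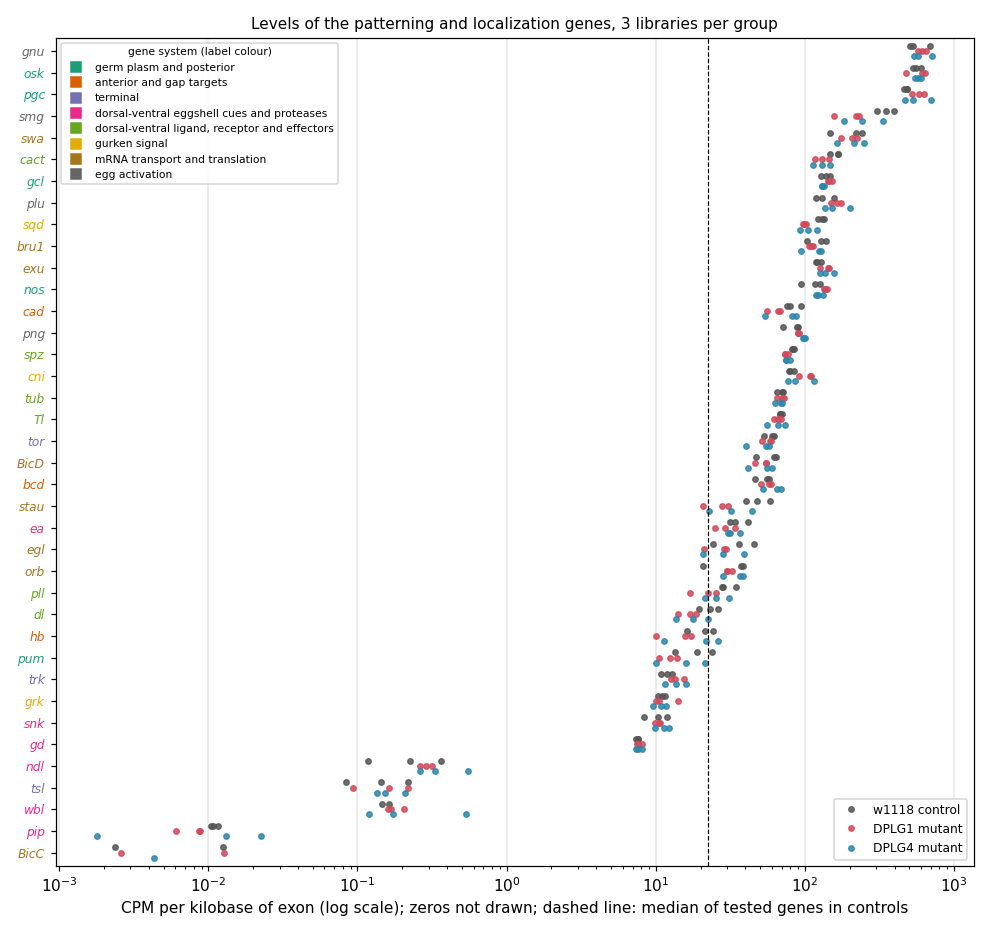
Level of each of the 38 genes in every library, as CPM per kilobase of annotated exon on a log scale, ordered by the control mean and with gene names coloured by system. gnu, osk, pgc and smg have the highest group means in all 3 groups, though not in every library, and ndl, tsl, wbl, pip and BicC lie below 1 CPM per kb.

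A group at the bottom consisted of ndl at 0.235 ± 0.123, tsl at 0.149 ± 0.0676, wbl at 0.103 ± 0.0892 and pip at 0.011 ± 0.000637 CPM per kb. These 4 are the genes of the list that act in follicle cells rather than in the germline. Of all 38, pip and BicC did not pass the filter on low counts, which left 36 tested. pip has 11 annotated transcripts and 11 kb of exons in all, and per kilobase of its longest transcript of 1.85 kb it stood at 0.065 ± 0.00378 CPM per kb.

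BicC, which encodes an RNA-binding protein of the germline, had 7 counts over all 9 libraries. On 2L at 16042047 to 16048757 of the BDGP6.54 annotation, plus strand, CG45084 shares 4311 bp (94.8%) of its 4547 bp of exons on the same strand and had 0 counts in every library, so 236 bp are unshared. The level of BicC therefore cannot be read from these counts. The other overlaps above 10% of the exon length lie on opposite strands, where reads of both genes cannot be told apart without a known strand setting. They are pgc with T3dh (46.9%), nos with CG11779 and Nsun5 (15.9% in all), grk with Akap200 (12.3%) and exu with galla-1 (12.1%). T3dh had 23 to 173 counts per library and Akap200 had 12544 to 58095.

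Neither mutant had a patterning gene past the threshold of the main test, edgeR's quasi-likelihood test with an adjusted p under 0.05 over 8427 genes. The counts were 0 of 36 in DPLG1 mutants, where 0.107% of all tested genes were called, 0 of 36 in DPLG4 mutants, where 0.427% were called, and 0 of 36 between the mutants, where 0.629% were called. At an unadjusted p under 0.05, 2 patterning genes were higher and 6 lower in DPLG1 mutants, against 7.13% and 9.85% of all tested genes. In DPLG4 mutants 0 were higher and 2 lower, against 7.32% and 3.45%. This balance depended on the scaling. With upper quartile scaling 5 were higher and 5 lower in DPLG1 mutants, against 12.1% and 7.3% of all tested genes, and 3 higher and 1 lower in DPLG4 mutants, against 8.69% and 1.89%. With each library's trend with exon length removed, 7 were higher and 4 lower in DPLG1 mutants, against 9.97% and 11.3%, and 3 higher and 2 lower in DPLG4 mutants, against 7.74% and 4.89%. DESeq2, the other tool run, called 1 patterning gene, stau, lower in DPLG1 mutants, where it called 2.7% of all genes it tested, so that 1 of 36 is near the background. It called 0 of 37 in DPLG4 mutants and 0 of 37 between the mutants, against 2.43% and 2.01% of all genes. Both mutant contrasts use the same control libraries, so their values stand side by side below and are not independent of each other.

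As a group, the patterning mRNAs were centred where all genes were. Their median log2 fold change was -0.01 in DPLG1 mutants, with 17 above and 19 below 0, against a median of 0.01 over all tested genes, of which 51.6% were above 0. In DPLG4 mutants the median was -0.03, again with 17 above and 19 below 0, against -0.01 over all genes, of which 48.9% were above 0. The 95% interval of the fold change lay within 2-fold in both directions for 29 of 36 genes in DPLG1 mutants and for 32 of 36 in DPLG4 mutants, and within 1.5-fold for 20 and 22. The 7 that reached beyond 2-fold in DPLG1 mutants were pum, hb, wbl, ndl, egl, stau and smg, and the 4 in DPLG4 mutants were tsl, wbl, ndl and stau.

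**Figure D2:**
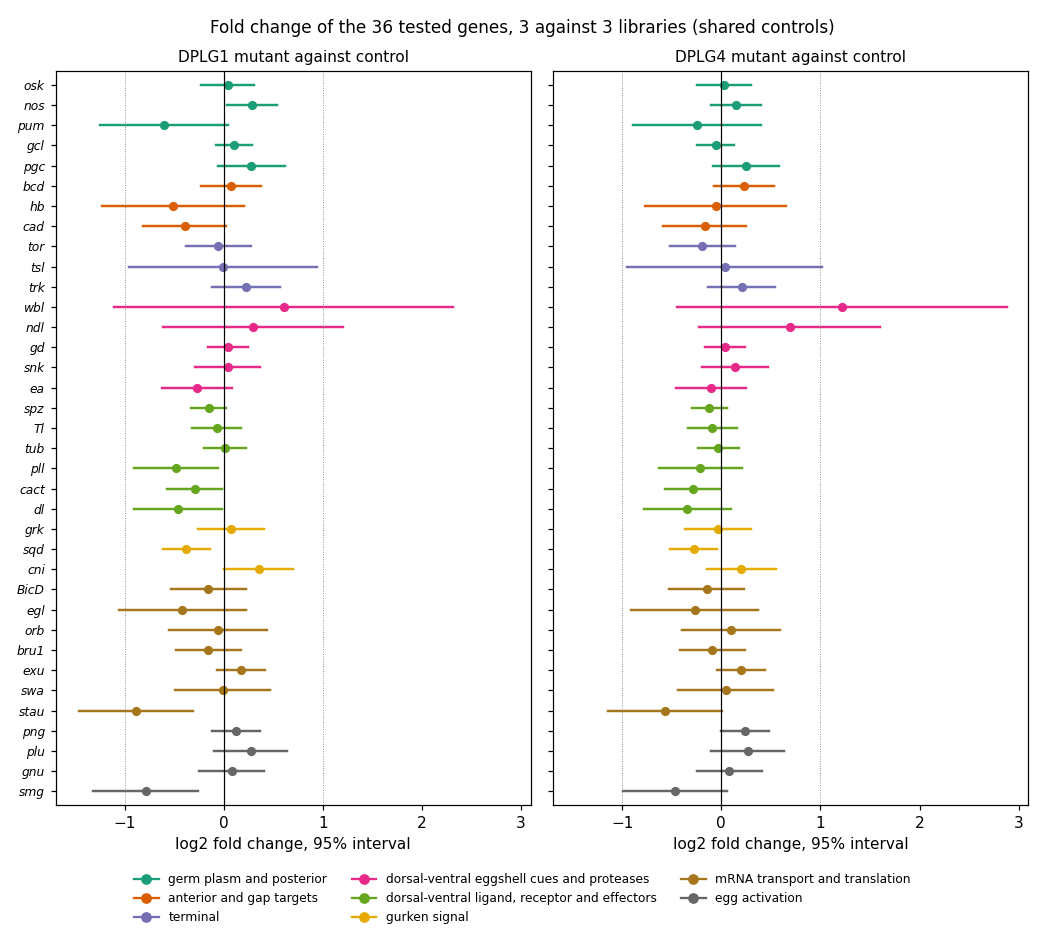
log2 fold change of the 36 tested genes in DPLG1 mutants (left) and DPLG4 mutants (right) against the shared controls, with dots for the estimate, bars for the 95% interval and colours for the system. stau and smg lie lowest in both panels, at -0.89 and -0.79 and at -0.57 and -0.47, and the follicle cell genes wbl, tsl and ndl have the widest bars.

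Mutant and control libraries were fully separated for 3 genes that were higher (nos, pgc, cni) and 8 that were lower (cad, spz, pll, cact, dl, sqd, stau, smg) in DPLG1 mutants, against 15.8% and 13.9% of all tested genes. In DPLG4 mutants 1 gene was higher without overlap (png) and 3 were lower (spz, cact, sqd), against 9.48% and 6.79%. Between the mutants 2 were higher in DPLG1 mutants (nos, gcl) and 1 was lower (png), against 9.04% and 6.46%.

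In the germ plasm and posterior system, osk mRNA had close means in the 3 groups. Its values were 1840, 1380 and 1760 CPM in DPLG1 mutants, 1650, 1730 and 1570 CPM in DPLG4 mutants and 1600, 1720 and 1520 CPM in controls. The groups overlap, and the log2 fold changes of 0.04 and 0.03 had 95% intervals of -0.23 to 0.31 and -0.24 to 0.30. nos, which encodes the posterior repressor of hb translation, had 330, 315 and 321 CPM in DPLG1 mutants, 280, 310 and 287 CPM in DPLG4 mutants and 222, 295 and 275 CPM in controls. All DPLG1 libraries lie above all controls, whose lowest library is replicate 1, and the DPLG4 libraries overlap them. The log2 fold changes were 0.29 (SE 0.11, edgeR adjusted p = 0.279) and 0.15 (SE 0.11, edgeR adjusted p = 0.635).

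pgc had 769, 630 and 711 CPM in DPLG1 mutants, 855, 644 and 572 CPM in DPLG4 mutants and 590, 591 and 561 CPM in controls. The DPLG1 libraries all exceed the controls and DPLG4 replicate 7 falls among them (log2 fold changes 0.28 and 0.25, edgeR adjusted p = 0.337 and 0.579). pum, which encodes the RNA-binding partner of Nanos, had 125, 147 and 164 CPM in DPLG1 mutants, 119, 188 and 252 CPM in DPLG4 mutants and 159, 223 and 282 CPM in controls. Its groups overlap, with a wide spread inside each (log2 fold changes -0.61 and -0.25, SE 0.29 and 0.28, edgeR adjusted p = 0.303 and 0.714). gcl, which is needed to form the pole cells, spanned 320 to 384 CPM over all 9 libraries.

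In the anterior system, bcd, the mRNA of the anterior homeodomain morphogen, had 129, 145 and 151 CPM in DPLG1 mutants, 134, 175 and 166 CPM in DPLG4 mutants and 118, 145 and 142 CPM in controls. The groups overlap (log2 fold changes 0.07 and 0.23, SE 0.13 for both, edgeR adjusted p = 0.786 and 0.574). cad, a posterior homeodomain factor whose translation Bicoid represses, had 144, 171 and 176 CPM in DPLG1 mutants, 138, 211 and 225 CPM in DPLG4 mutants and 196, 206 and 243 CPM in controls. The DPLG1 libraries lie below all controls and the DPLG4 libraries overlap them (log2 fold changes -0.40 and -0.17, edgeR adjusted p = 0.302 and 0.698). Within a library the ratio of cad to bcd per kilobase was 1.11 to 1.16 in DPLG1 mutants, 1.01 to 1.34 in DPLG4 mutants and 1.40 to 1.69 in controls. It carries the cad and bcd values given above and so is not a separate result.

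hb, the zinc finger gap gene whose maternal mRNA Nanos and Pumilio repress, had 38.8, 60.4 and 66.5 CPM in DPLG1 mutants, 43.9, 82.9 and 101 CPM in DPLG4 mutants and 61.9, 82 and 92.9 CPM in controls. The groups overlap (log2 fold changes -0.52 and -0.06, SE 0.32 and 0.31, edgeR adjusted p = 0.376 and 0.943). The lowest library of each mutant, replicate 22 and replicate 15, is also the lowest for pum, cad and genes of other systems, among them stau, smg, egl and dl. By contrast, pgc, cni and plu were highest in these libraries. Their deviations had the most negative Spearman's rho with exon length within their groups, at -0.396 and -0.499. The part of that trend in these values was not tested.

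In the terminal system, the receptor tyrosine kinase gene tor had 161, 186 and 183 CPM in DPLG1 mutants, 127, 173 and 181 CPM in DPLG4 mutants and 166, 190 and 195 CPM in controls. The groups overlap (log2 fold changes -0.06 and -0.20, SE 0.15 for both, edgeR adjusted p = 0.84 and 0.631). trk, which encodes the ligand precursor of Torso, had 13.7, 11.2 and 11.9 CPM in DPLG1 mutants, 14, 12.1 and 10.2 CPM in DPLG4 mutants and 11.4, 10.5 and 9.62 CPM in controls. It overlaps as well (log2 fold changes 0.22 and 0.21, edgeR adjusted p = 0.41 and 0.627). Among the patterning genes on 2L it lies nearest to CG12253, 0.717 Mb away.

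tsl, the follicle cell gene that localizes terminal signalling to the egg poles, had 38, 10 and 15 counts in DPLG1 mutants, 26, 27 and 16 in DPLG4 mutants and 7, 42 and 3 in controls, or 0.172 to 0.45 CPM over all libraries. At this depth a difference of less than about 2-fold was not detectable, as the intervals of -0.96 to 0.94 and -0.95 to 1.02 on the log2 scale show.

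In the dorsal-ventral system, the eggshell cues and proteases other than ea were less abundant per kilobase than the ligand, receptor and effector genes. Among the germline-made serine proteases of the cascade, gd had the smallest coefficient of variation in controls and in DPLG4 mutants, and snk in DPLG1 mutants (3.82% against 4.27% for gd). gd had 17.1, 18.4 and 17 CPM in DPLG1 mutants, 16.8, 18.3 and 17.2 CPM in DPLG4 mutants and 17.2, 16.7 and 17.2 CPM in controls. Its coefficient of variation was 1.80% in controls, where the median of all tested genes was 14.9%, and its log2 fold changes of 0.04 and 0.03 had 95% intervals of -0.16 to 0.24 and -0.17 to 0.24. snk, the next protease, spanned 11.9 to 17.5 CPM over all 9 libraries. ea, the protease that cleaves the Toll ligand, had 38.1, 52.3 and 44.7 CPM in DPLG1 mutants, 46.9, 48.3 and 56.4 CPM in DPLG4 mutants and 47.8, 51.9 and 63.7 CPM in controls, with overlapping groups (log2 fold changes -0.27 and -0.11, edgeR adjusted p = 0.351 and 0.765).

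The follicle cell cues were the lowest of the system per kilobase. In controls the coefficients of variation of wbl and ndl were 86.9% and 52.2%, and in DPLG1 mutants 13.9% and 9.51%. ndl, which encodes a large protease that starts the cascade, had 2.62, 2.16 and 2.36 CPM in DPLG1 mutants, 4.5, 2.73 and 2.16 CPM in DPLG4 mutants and 2.98, 1.84 and 0.973 CPM in controls. The groups overlap, and the highest library, DPLG4 replicate 15, stands apart from the rest (log2 fold changes 0.29 and 0.69, SE 0.40 for both, edgeR adjusted p = 0.687 and 0.573). wbl, which encodes an endoplasmic reticulum protein needed by Pipe, had 23, 11 and 10 counts in DPLG1 mutants, 43, 22 and 8 in DPLG4 mutants and 5, 18 and 0 in controls. Here too DPLG4 replicate 15 was highest, at 0.709 CPM, where the other 8 libraries held 0 to 0.272 CPM (log2 fold changes 0.61 and 1.22, SE 0.75 and 0.73, edgeR adjusted p = 0.652 and 0.582). pip, the sulfotransferase gene of ventral follicle cells, had 1 to 15 counts per library, again with the most in that library.

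The summed level of follicle cell marker mRNAs was not constant between libraries. A list of 12 follicle cell markers, none at 0 in all libraries, summed to 408 to 725 CPM in DPLG1 mutants, 825 to 1110 CPM in DPLG4 mutants and 470 to 863 CPM in controls, with DPLG4 replicate 15 highest. Yolk protein and vitelline membrane genes dominate this sum, and the members did not move together. From DPLG1 replicate 22 to replicate 7 the sum rose from 408 to 725 CPM, as did the yolk protein and vitelline membrane genes. Between the same libraries tj fell from 7.92 to 4.96, Fas3 from 5.97 to 3.71 and Cad99C from 2.83 to 1.85 CPM. A list of 13 chorion genes of late follicle cells, none at 0 in all libraries, summed to 1150 to 2110, 1480 to 2540 and 341 to 862 CPM. The part of these differences in the values of ndl, wbl, tsl and pip was not tested.

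Downstream of the cascade, the Toll ligand and receptor genes varied little between groups. spz, the ligand gene, had 175, 182 and 174 CPM in DPLG1 mutants, 177, 178 and 188 CPM in DPLG4 mutants and 197, 201 and 193 CPM in controls. Both mutants lie below all controls, by a small margin (log2 fold changes -0.16 and -0.12, SE 0.08 for both, edgeR adjusted p = 0.32 and 0.594). Tl, the receptor gene, spanned 288 to 380 CPM over all libraries, and its ratio to spz per kilobase moved little: the ratio of spz to Tl was 1.21 ± 0.0192 in controls, 1.14 ± 0.0663 in DPLG1 mutants and 1.20 ± 0.163 in DPLG4 mutants. tub, which encodes the adaptor that links the receptor to its kinase, spanned 127 to 145 CPM (log2 fold changes 0.01 and -0.03).

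The effector genes pll, cact and dl had means below those of controls in both mutants, although the main test called none. pll, the kinase gene, had 33, 48.7 and 43.2 CPM in DPLG1 mutants, 41.5, 49.3 and 60.3 CPM in DPLG4 mutants and 54.2, 53.8 and 67 CPM in controls. The DPLG1 libraries lie below all controls and the DPLG4 libraries overlap them (log2 fold changes -0.49 and -0.21, SE 0.19 for both, edgeR adjusted p = 0.277 and 0.666). cact, which encodes the inhibitor that holds Dorsal in the cytoplasm, had 390, 480 and 434 CPM in DPLG1 mutants, 380, 436 and 494 CPM in DPLG4 mutants and 554, 494 and 554 CPM in controls. Both mutants lie below the controls, with DPLG4 replicate 7 equal to control replicate 2 to the digits given (log2 fold changes -0.30 and -0.29, SE 0.12 for both, edgeR adjusted p = 0.283 and 0.445). dl, the NF-kappaB type transcription factor gene, had 90.7, 120 and 110 CPM in DPLG1 mutants, 88.5, 115 and 144 CPM in DPLG4 mutants and 125, 149 and 168 CPM in controls. The DPLG1 libraries lie below the controls and the DPLG4 libraries overlap them (log2 fold changes -0.46 and -0.34, SE 0.19 for both, edgeR adjusted p = 0.289 and 0.562).

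The ratio of cact to dl per kilobase differed between groups by less than its spread in controls, at 7.14 ± 1.27 in controls, 7.91 ± 0.369 in DPLG1 mutants and 7.43 ± 0.85 in DPLG4 mutants. The ratio of pll to tub was 0.437 ± 0.0512 in controls, 0.308 ± 0.0442 in DPLG1 mutants and 0.384 ± 0.0551 in DPLG4 mutants (SD, n = 3).

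In the Gurken system, the ligand gene overlapped between groups, while the gene of its RNA-binding protein stood lower in both mutants without passing the test. grk, the TGF-alpha type ligand gene, had 24.2, 17.2 and 18 CPM in DPLG1 mutants, 20.2, 18.6 and 16.4 CPM in DPLG4 mutants and 19.7, 18.9 and 17.9 CPM in controls. The groups overlap (log2 fold changes 0.08 and -0.03, SE 0.15 for both, edgeR adjusted p = 0.789 and 0.925). sqd, on 3R at 13634862 to 13646304, minus strand, encodes an hnRNP that localizes grk mRNA. It had 752, 764 and 789 CPM in DPLG1 mutants, 720, 818 and 935 CPM in DPLG4 mutants and 952, 1010 and 1040 CPM in controls. Every mutant library lies below every control, with the DPLG1 libraries close together. The log2 fold change in DPLG1 mutants was -0.38 (SE 0.11, 1.30-fold lower, edgeR unadjusted p = 0.0055, edgeR adjusted p = 0.265), the smallest p of the patterning genes, and in DPLG4 mutants it was -0.28 (SE 0.11, edgeR adjusted p = 0.413). sqd has 7.74 kb of exons, and with each library's trend with exon length removed it stood at 0.052 in DPLG1 mutants. Over the alternatives its DPLG4 estimate ranged from -0.376 to -0.047.

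cni, which encodes a cargo receptor for the export of Gurken from the endoplasmic reticulum, had estimates above 0, with 130, 108 and 128 CPM in DPLG1 mutants, 136, 102 and 91.8 CPM in DPLG4 mutants and 100, 94.4 and 92.3 CPM in controls. The DPLG1 libraries lie above the controls and the DPLG4 libraries overlap them (log2 fold changes 0.35 and 0.20, SE 0.15 for both, edgeR adjusted p = 0.293 and 0.633). cni and cact are neighbours on the minus strand of 2L, 2.31 kb apart, and their estimates have opposite signs in both mutants. They differ in exon length, with 1.18 kb for cni and 3.32 kb for cact. The medians of all tested genes up to 2.52 kb and above it also had opposite signs. They were 0.09 and -0.21 in DPLG1 mutants and 0.07 and -0.15 in DPLG4 mutants. The ratio of grk to cni per kilobase was 0.135 ± 0.00209 in controls, 0.112 ± 0.0159 in DPLG1 mutants and 0.117 ± 0.0128 in DPLG4 mutants.

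**Figure D3:**
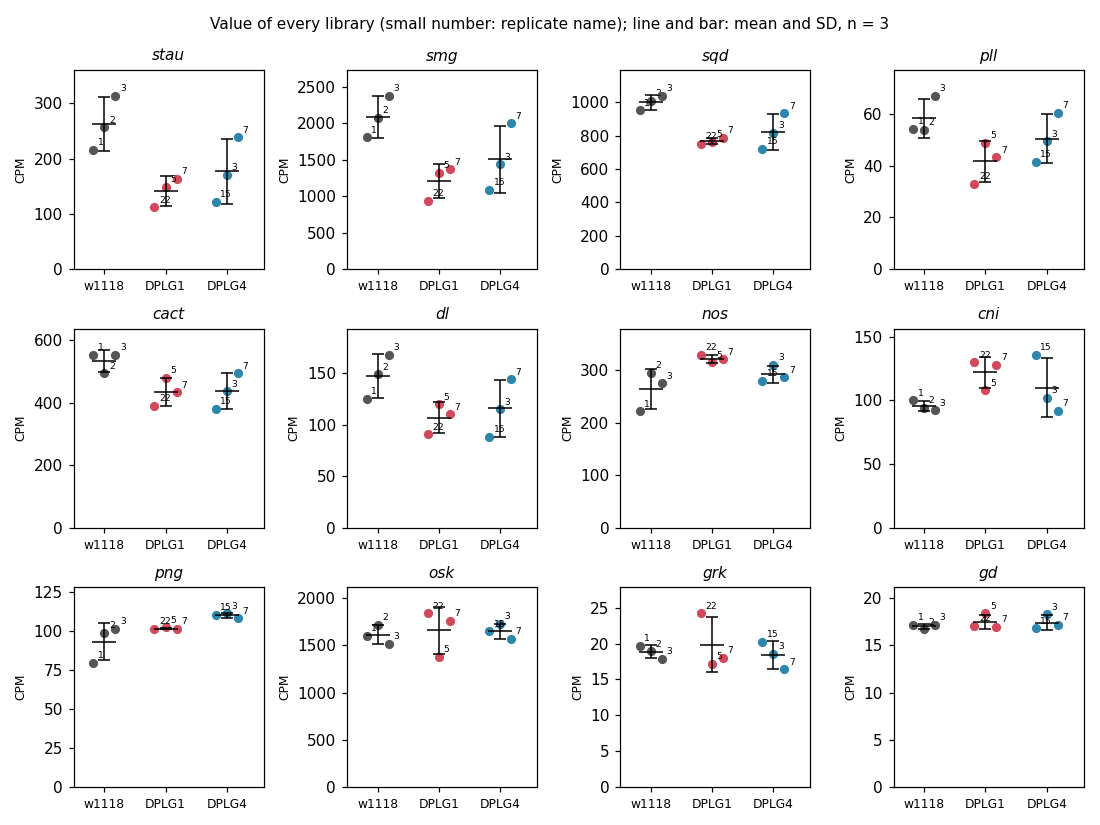
CPM of 12 of the genes in every library of the w1118 control, DPLG1 mutant and DPLG4 mutant groups, from 0, with replicate names beside the dots and the mean and SD of each group in black. stau, smg and sqd lie lower in the DPLG1 libraries than in any control, nos and cni lie higher, and osk, grk and gd overlap.

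Among the mRNA transport and translation genes, stau, on 2R at 18117896 to 18125779, minus strand, with 3 annotated transcripts, had the most negative estimate. It encodes a double-stranded RNA-binding protein that localizes osk and bcd mRNAs. Its values were 112, 149 and 164 CPM in DPLG1 mutants, 122, 171 and 239 CPM in DPLG4 mutants and 216, 257 and 314 CPM in controls. All DPLG1 libraries lie below all controls, and DPLG4 replicate 7 lies among the controls. The log2 fold change in DPLG1 mutants was -0.89 (SE 0.25, 1.85-fold lower, 95% interval -1.46 to -0.31) with an edgeR unadjusted p of 0.00716 and an edgeR adjusted p of 0.269. DESeq2 gave -0.90 with an adjusted p of 0.0413, the lowest over the alternatives, where the highest was 0.684. In DPLG4 mutants the edgeR log2 fold change was -0.57 (SE 0.25, edgeR adjusted p = 0.466).

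The mRNAs that Staufen localizes, osk and bcd, had estimates at or above 0. Per kilobase within a library, the ratio of bcd to stau was 1.95 to 2.43 in DPLG1 mutants, 1.47 to 2.33 in DPLG4 mutants and 0.96 to 1.20 in controls. The ratio of osk to stau was 22.7 ± 7.02, 18.8 ± 6.47 and 11.8 ± 2.47 in the same order. Both ratios carry the low stau values and so are not separate results. exu, which like stau is needed to localize bcd mRNA, had 414, 471 and 481 CPM in DPLG1 mutants, 413, 520 and 453 CPM in DPLG4 mutants and 398, 421 and 392 CPM in controls. The groups overlap by 1 library of each mutant (log2 fold changes 0.17 and 0.20, SE 0.11 for both, edgeR adjusted p = 0.379 and 0.553).

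The genes of the dynein adaptor complex overlapped between groups. BicD, the adaptor gene, spanned 256 to 303 CPM in DPLG1 mutants, 228 to 329 CPM in DPLG4 mutants and 259 to 354 CPM in controls. egl, which encodes the RNA-binding link between cargo and BicD, had 95.6, 133 and 129 CPM in DPLG1 mutants, 93.2, 128 and 177 CPM in DPLG4 mutants and 110, 163 and 206 CPM in controls. Its estimates were negative with wide error (log2 fold changes -0.42 and -0.27, SE 0.28 for both, edgeR adjusted p = 0.409 and 0.691).

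The translational regulators orb, which encodes a CPEB protein that activates osk and grk mRNAs, and bru1, which encodes a repressor of osk translation, overlapped the control range. orb spanned 287 to 309 CPM in DPLG1 mutants, 272 to 365 CPM in DPLG4 mutants and 199 to 365 CPM in controls, and bru1 spanned 831 to 891, 737 to 1000 and 804 to 1080 CPM. swa, which acts in bcd localization, spanned 353 to 453, 335 to 507 and 298 to 493 CPM, and its log2 fold changes were -0.01 and 0.05. In all 3 genes control replicate 1 was the lowest control.

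In egg activation, the 3 subunit genes of the PNG kinase had estimates above 0 in both mutants in the main fit. Those of smg, whose translation the kinase promotes, were below 0. The subunit genes have 0.616 to 1.11 kb of exons and smg has 5.96 kb. In DPLG1 mutants the median log2 fold change of all tested genes was 0.09 up to 2.52 kb and -0.21 above it. With each library's trend with exon length removed, png stood at -0.011 in DPLG1 mutants. png, the catalytic subunit gene, was very even within each mutant group, with 101, 102 and 101 CPM in DPLG1 mutants, 110, 111 and 108 CPM in DPLG4 mutants and 79.3, 98.6 and 101 CPM in controls. The DPLG4 libraries lie above all others (log2 fold change 0.24 against control, SE 0.11, edgeR adjusted p = 0.466), and the DPLG1 libraries overlap the controls (log2 fold change 0.12, SE 0.11, edgeR adjusted p = 0.519). plu, which encodes an ankyrin repeat subunit, had 108, 92.8 and 101 CPM in DPLG1 mutants, 124, 93.1 and 84.2 CPM in DPLG4 mutants and 96.5, 80.4 and 73.5 CPM in controls, with overlapping groups (log2 fold changes 0.27 for both, edgeR adjusted p = 0.37 and 0.586). gnu spanned 468 to 656 CPM over all libraries (log2 fold change 0.08 in both mutants). The ratio of gnu to plu per kilobase varied less than either gene, at 4.25 ± 0.162 in controls, 3.73 ± 0.0515 in DPLG1 mutants and 3.78 ± 0.219 in DPLG4 mutants.

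smg, on 3L at 8990317 to 8997989, minus strand, with 5 annotated transcripts, had 941, 1320 and 1370 CPM in DPLG1 mutants, 1090, 1440 and 2000 CPM in DPLG4 mutants and 1810, 2080 and 2380 CPM in controls. The DPLG1 libraries lie below all controls, and DPLG4 replicate 7 lies among them. The log2 fold change in DPLG1 mutants was -0.79 (SE 0.23, 1.73-fold lower, 95% interval -1.32 to -0.26, edgeR unadjusted p = 0.00815, edgeR adjusted p = 0.269). DESeq2 gave an adjusted p of 0.0552, the lowest over the alternatives, where the highest was 0.684. In DPLG4 mutants it was -0.47 (SE 0.23, edgeR adjusted p = 0.516). smg lies 1.34 Mb from CG7492 on 3L, and ndl, whose estimates were above 0 in both mutants, lies nearer, at 1.05 Mb. The part of position in these values was not tested. Per kilobase, the ratio of smg to png was 1.75 to 2.52 in DPLG1 mutants, 1.84 to 3.45 in DPLG4 mutants and 3.95 to 4.39 in controls, without overlap between either mutant and the controls. This ratio carries the low smg values and so is not a separate result. It also sets a gene with 5.96 kb of exons over one with 1.11 kb, and libraries differed by exon length.

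Many of the lower genes have long exons, and libraries differed by transcript length. Across genes, which are not independent replicates, the deviation of a library from the mean of all libraries followed exon length with Spearman's rho of -0.396, -0.046 and -0.213 in DPLG1 mutants, -0.499, -0.111 and 0.435 in DPLG4 mutants and -0.209, 0.6 and 0.499 in controls. Of the 18 tested patterning genes with exons longer than 2.52 kb, 14 were lower in DPLG1 mutants (median log2 fold change -0.23), against 70% of all tested genes of that length (median -0.21). Of the 18 shorter ones 5 were lower (median 0.08), against 34.4% (median 0.09). In DPLG4 mutants 13 of the longer and 6 of the shorter were lower, against 71.9% and 37.5% of all tested genes.

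With each library's trend with exon length removed, most negative estimates of long genes moved towards or past 0. sqd, of 7.74 kb, turned to 0.05 in DPLG1 mutants (edgeR adjusted p = 0.847), pum, of 11.8 kb, stood at -0.03 and dl, of 6.43 kb, at -0.08. stau and smg, of 5.37 and 5.96 kb, stayed below 0, at -0.55 (SE 0.11, edgeR adjusted p = 0.0958) and -0.43 (SE 0.09, edgeR adjusted p = 0.112) in DPLG1 mutants and at -0.39 and -0.29 (edgeR adjusted p = 0.213 and 0.279) in DPLG4 mutants. Of the shorter genes, pll, of 1.93 kb, stayed at -0.51 (edgeR adjusted p = 0.163) and nos, of 2.35 kb, stood at 0.33 (edgeR adjusted p = 0.142). orb, of 9.55 kb, became 0.50 and 0.41 in DPLG1 and DPLG4 mutants (edgeR adjusted p = 0.17 and 0.375). No patterning gene passed the threshold in that fit, in which 17 and 55 genes were called in all.

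**Figure D4:**
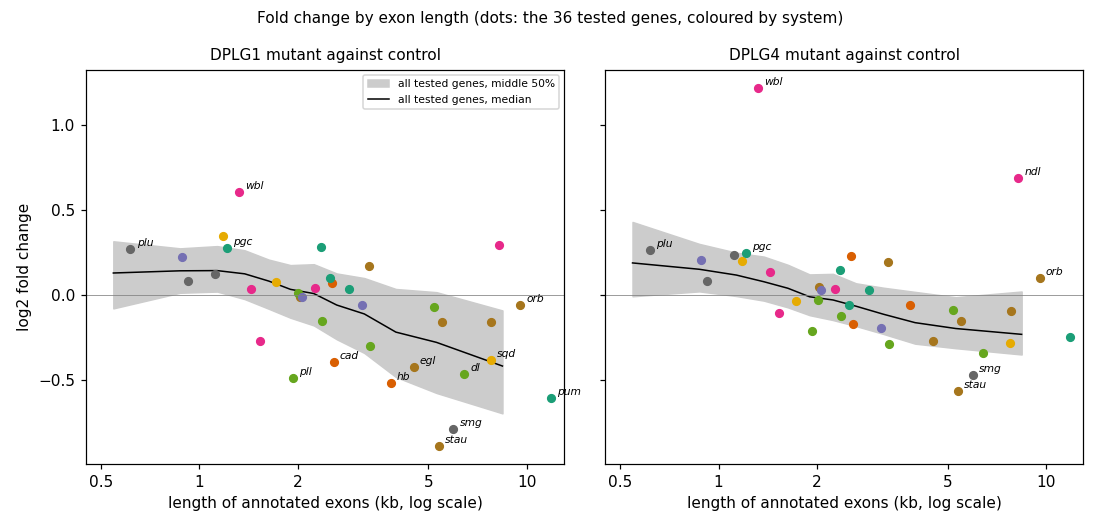
log2 fold change against annotated exon length (log scale) in DPLG1 mutants (left) and DPLG4 mutants (right), with dots for the 36 tested genes, a line for the median of all tested genes in 12 length classes and grey for their middle 50%. The medians of long genes lie below 0 in both panels, and stau and smg lie below the grey band.

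Between the mutants, the patterning genes had a median log2 fold change of -0.05 (DPLG1 over DPLG4), against -0.04 over all tested genes, with 12 of 36 above 0 against 43.6% of all, and 0 of 36 had an unadjusted p under 0.05, against 3.65% of all tested genes higher and 3.89% lower. The smallest p was that of gcl, with 358, 384 and 366 CPM in DPLG1 mutants against 328, 328 and 337 CPM in DPLG4 mutants (log2 fold change 0.16, SE 0.08, edgeR adjusted p = 0.746). For stau and smg the direct estimates were -0.32 for both, with 95% intervals of -0.89 to 0.25 and -0.84 to 0.21, which hold values from a lower level in DPLG1 mutants to a slightly higher one.

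The wider pathways were followed through 94 partner genes matched of 99 listed, of which 93 were tested. edgeR called 0 of them in either mutant, while DESeq2 called lwr and zld lower in DPLG1 mutants and cort higher in DPLG4 mutants. These are 2.15% and 1.08% of the 93, against 2.7% and 2.43% of all genes that DESeq2 tested. At an unadjusted p under 0.05 in edgeR, 1 was higher and 24 lower in DPLG1 mutants, against 7.13% and 9.85% of all tested genes, and 1 was higher and 4 lower in DPLG4 mutants, against 7.32% and 3.45%. With upper quartile scaling these counts were 9 and 20 in DPLG1 mutants and 1 and 0 in DPLG4 mutants, against 12.1% and 7.3% and 8.69% and 1.89% of all tested genes. The median log2 fold changes were -0.18 and -0.17, against 0.01 and -0.01 over all tested genes. Of the 93, 68 have exons longer than 2.52 kb, and with the length trend removed the medians were -0.02 and -0.04. In that fit an unadjusted p under 0.05 was reached by 11 partners with higher and 22 with lower levels in DPLG1 mutants, and by 6 and 3 in DPLG4 mutants, against 9.97% and 11.3% and 7.74% and 4.89% of all tested genes. The median thus moved to near 0, while the number of lower partners in DPLG1 mutants changed little. Libraries were fully separated from controls for 12 higher and 29 lower partners in DPLG1 mutants, against 15.8% and 13.9% of all tested genes. In DPLG4 mutants 1 was higher and 5 lower without overlap, against 9.48% and 6.79%. The 2 partners named per list were chosen by smallest p, so their separation follows in part from that choice.

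Among germ plasm partners, brat, which encodes a translational repressor that acts with Nanos and Pumilio, had 150, 234 and 244 CPM in DPLG1 mutants, 194, 268 and 402 CPM in DPLG4 mutants and 300, 364 and 446 CPM in controls (log2 fold changes -0.82 and -0.36, edgeR adjusted p = 0.276 and 0.641). The DPLG1 libraries lie below the controls. Tm1, of which an isoform links osk mRNA to kinesin, spanned 532 to 546, 511 to 533 and 567 to 640 CPM, without overlap between mutants and controls (log2 fold changes -0.15 and -0.21, edgeR adjusted p = 0.329 and 0.413). The lower level of Tm1 depended on the scaling. With the length trend removed its estimates were 0.325 and 0.054, and with upper quartile scaling -0.011 and -0.117. In the osk and grk particles, glo, which encodes an hnRNP that represses nos translation, spanned 68.7 to 105, 83.6 to 174 and 134 to 202 CPM, and fs(1)K10, needed to localize grk mRNA, spanned 64.3 to 69.5, 56.8 to 82.6 and 81.8 to 99.3 CPM (edgeR adjusted p = 0.276 for both in DPLG1 mutants, 0.586 and 0.446 in DPLG4 mutants). In both genes the DPLG1 libraries lie below the controls and the DPLG4 libraries overlap them.

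Of the transport genes, Rab11, a GTPase of recycling endosomes, spanned 327 to 339, 332 to 355 and 378 to 463 CPM, and the dynein light intermediate chain gene Dlic spanned 329 to 354, 269 to 352 and 373 to 390 CPM. Neither overlaps between mutants and controls (edgeR adjusted p = 0.276 and 0.362 in DPLG1 mutants, 0.445 and 0.396 in DPLG4 mutants). With the length trend removed, Dlic stood at 0.033 in DPLG1 and -0.157 in DPLG4 mutants, and Rab11 at -0.317 and -0.242. Of the terminal partners, the phosphatase gene csw spanned 79.1 to 101, 79.6 to 149 and 112 to 174 CPM, and the repressor gene cic spanned 73.5 to 116, 92.7 to 200 and 132 to 224 CPM. In both genes the DPLG1 libraries lie below the controls and the DPLG4 libraries overlap them (edgeR adjusted p = 0.276 in DPLG1 mutants for both, 0.621 and 0.667 in DPLG4 mutants).

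Of the Toll partners, lwr, which encodes the SUMO-conjugating enzyme that binds Dorsal, had 183, 226 and 212 CPM in DPLG1 mutants, 283, 240 and 248 CPM in DPLG4 mutants and 303, 264 and 270 CPM in controls. Its log2 fold change in DPLG1 mutants was -0.43 (SE 0.11, edgeR adjusted p = 0.253; DESeq2 adjusted p = 0.0264). Gprk2, a receptor kinase gene, spanned 56.9 to 79.1, 62.3 to 122 and 84.5 to 145 CPM (log2 fold changes -0.71 and -0.40, edgeR adjusted p = 0.278 and 0.616). Of the Egfr partners, kek1, which encodes an inhibitor of the receptor, had 3.62, 3.26 and 3.65 CPM in DPLG1 mutants, 3.58, 1.86 and 2.34 CPM in DPLG4 mutants and 2.26, 1.95 and 1.72 CPM in controls. All DPLG1 libraries exceed the controls, which the DPLG4 libraries overlap (log2 fold changes 0.83 and 0.39, SE 0.26 for both, edgeR adjusted p = 0.276 and 0.609). aop, an ETS repressor gene, spanned 37.2 to 55.9, 42.9 to 81 and 63.3 to 92.7 CPM, with the DPLG1 libraries below the controls and the DPLG4 libraries overlapping them (log2 fold changes -0.66 and -0.36, edgeR adjusted p = 0.278 and 0.622).

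Of the egg activation partners, cort, which encodes an activator of the anaphase-promoting complex in female meiosis, stood out in DPLG4 mutants. It had 79.5, 85.7 and 80.6 CPM there, 65, 63.1 and 65.1 CPM in DPLG1 mutants and 55.6, 60.5 and 62.7 CPM in controls. All DPLG4 libraries lie above all others. The log2 fold change was 0.46 (SE 0.09), with an edgeR adjusted p of 0.0864, and it passed the threshold in DESeq2 (adjusted p = 3.87e-05) and with the length trend removed (edgeR adjusted p = 0.0396), while the other scalings and filters and the fits without 1 replicate gave up to 0.469. In DPLG1 mutants it was 0.11 (edgeR adjusted p = 0.472), and the difference between the mutants was -0.35 (SE 0.09, edgeR adjusted p = 0.195), which DESeq2 called. stg, the Cdc25 phosphatase gene, had 353, 450 and 454 CPM in DPLG1 mutants, 389, 511 and 610 CPM in DPLG4 mutants and 583, 623 and 723 CPM in controls (log2 fold changes -0.62 and -0.35, edgeR adjusted p = 0.269 and 0.519). zld, the activator of the zygotic genome, is named after its values were seen because DESeq2 called it in DPLG1 mutants (72.7 ± 17.2 against 148 ± 30.3 CPM, edgeR adjusted p = 0.269, DESeq2 adjusted p = 0.0391).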

How the data were processed

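The authors deposited raw counts per gene, 1 file per library, for 9 libraries of ovary total RNA. Per the submitters' processing notes, reads were handled with FastQC, STAR 2.5, HTSeq and DESeq2. The notes list BDGP6 and also GRCh37, without saying what the human genome was for. Neither the gene annotation nor the strandedness of counting is stated. The 5 summary lines of each file (11.5% to 13.8% of reads, and 72% in control replicate 1) stayed out of library sizes and tests. Groups came from the sample titles, whose numbers served only as replicate names.

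Symbols, positions and exon lengths came from the Ensembl BDGP6.54 annotation, with synonyms from RefSeq; 17253 of 17559 identifiers were placed. Tests used edgeR 4.0.16 (R 4.3.3, limma 3.58.1): filterByExpr (8427 of 13404 genes with any count), TMM scaling, and a robust quasi-likelihood fit with group as the only term over all 9 libraries. p-values were adjusted by Benjamini-Hochberg over all tested genes. Standard errors (SE) were derived as the absolute log2 fold change divided by the root of F. The 95% intervals use the moderated degrees of freedom, and the floor of 3 counts covers counting error only. Replicates correlated at 0.976 to 0.994 and every pair differed by more than sampling noise. The fit was also run on counts simulated from its own estimates of spread, with no trend with exon length. That run therefore does not cover the length trends of these libraries.

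All 38 genes are given with their levels or in the summaries of their system. Per system, the 3 genes with the smallest p in either mutant contrast are given by library, and per partner list the 2 with the smallest p are named; osk, gd, spz, gcl and the other genes given beyond this rule were chosen after their values were seen. The members and lists were chosen with earlier results of these data known. The ratios printed are a part of those computed, for gene pairs chosen by hand, and each carries the values of its genes. vas, Imp, CanA-14F, Kdo and CCR4 were not matched and are not used here. The alternatives were DESeq2 size factors, upper quartile scaling, library sizes without eggshell and yolk genes, no filter, a filter of at least 1 CPM in 3 libraries, the DESeq2 1.42.0 Wald test, only the 6 libraries compared, removal of each library's trend with exon length (loess), leaving out each replicate, and the longest transcript as length.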

Additional observations from a re-analysis of the deposited data

How the results depend on the processing

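No paired analysis was run because the labels give no pairing or batch, and the replicate numbers served only as names. With upper quartile scaling, the median log2 fold change over all tested genes moved to 0.15 in DPLG1 and 0.09 in DPLG4 mutants, and that of the patterning genes to 0.142 and 0.066, so the patterning genes again lay where all genes did. The estimates of tor and tsl in DPLG1 mutants then turned to 0.087 and 0.146, and those of hb and grk in DPLG4 mutants to 0.021 and 0.067. Without a filter tsl in DPLG1 mutants was 0.006. With the length trend removed the patterning median in DPLG4 mutants was 0.06, and tor (0.089), sqd (0.052) and png (-0.011) in DPLG1 mutants and pum (0.017) and hb (0.069) in DPLG4 mutants changed sign. None of these estimates passed the test under edgeR in any setting run. The number of genes called over all genes, with 9, 36 and 53 in DPLG1, DPLG4 and the direct comparison, became 17, 55 and 91 with the length trend removed and 223, 219 and 207 with DESeq2, and 12 and 29 for DPLG4 and the direct comparison with only the 6 libraries compared. DESeq2 called 1 patterning gene in DPLG1 mutants; the cause was not tested. Leaving out 1 replicate at a time gave 6 to 16, 11 to 36 and 24 to 51 genes called, 0 patterning genes called in each comparison, and patterning medians of -0.069 to 0.04, -0.091 to 0.018 and -0.097 to -0.035. In DPLG1 mutants these fits ranged from -0.005 to 0.135 for bcd, -0.097 to 0.18 for grk, -0.012 to 0.729 for ndl, -0.109 to 0.006 for tor and -0.342 to 0.461 for tsl. In DPLG4 mutants they ranged from -0.297 to 0.019 for cad, -0.186 to 0.012 for ea, -0.106 to 0.046 for grk, -0.308 to 0.218 for hb and -0.188 to 0.504 for tsl. With the longest transcript as length, 28 in place of 27 genes lay above the median of tested genes and 12 in the highest 10%. Depth limits wbl, tsl and pip, while the level of BicC cannot be read because of its shared exons. All of these genes had 0 to 43 counts per library.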
